A study of Mus musculus with 15 samples.

Results

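Mouse embryonic stem cells labelled Nat1-null (3 arrays) were compared with wild-type mouse embryonic stem cells (3 arrays) over every gene that a single-colour Agilent microarray measured. The 6 arrays were chosen by their genotype labels from the 15 arrays of the study, and 14443 of the 21368 genes with a named probe passed the filter on dim probes. The labels describe one medium and gelatin-coated dishes for all cells and name no doxycycline (Dox) for these 2 groups. The other 9 arrays hold null cells that also carry an inducible transgene, either Map3k3 without or with Dox or EGFP with Dox, and they serve here for the estimate of spread and as further null-background arrays beside a result. The sources used here do not give strain, sex, clone number, passage or the way the gene was inactivated, nor do they say that the 3 samples of a group were separate cultures, and the p-values therefore speak only for the scatter among these samples, which may be technical. Whether the null cells descend from the wild-type cells is likewise unstated, so the lost gene and anything else that sets the lines apart cannot be told apart.

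The gene that the labels call Nat1 is Eif4g2, also known as Dap5. Its protein is a relative of the scaffold factor eIF4G that lacks the region which binds the cap-binding protein, and it helps ribosomes start on a subset of messenger RNAs. Mouse embryonic stem cells correspond to the inner cells of the blastocyst and are held in that state by LIF acting through STAT3, while FGF, Wnt, Notch and activin signals guide their exit from it. An array reads the amount of each messenger RNA and not its translation.

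The null cells differed from wild-type cells in 5530 genes (38.3% of those tested), of which 2641 (18.3%) rose and 2889 (20.0%) fell. A gene was called, and is said to have risen or fallen, when it changed at least 1.5-fold with an adjusted p under 0.05 in limma. Falls were larger than rises. Among called genes measured above background in both groups the median fold was 1.86 for rises and 2.20 for falls. With bounds counted as folds, 190 genes rose and 745 fell at least 4-fold, and 30 rose and 217 fell at least 10-fold. Collagens, keratins, contractile proteins, the Notch pathway, paternally expressed imprinted genes, methylation-sensitive germline genes and the antigen presentation pathway were mostly lower, whereas LIF and STAT3 pathway genes, Hox genes, DNA methylation genes, Polycomb subunits and respiratory chain genes were more often higher. Ribosomal proteins and the core initiation factors were nearly all uncalled. In 72.9% of all genes tested, all null arrays lay on one side of all wild-type arrays, so non-overlap alone marks no gene here. Among the 11861 genes above background on all 15 arrays, where genes lost in null cells cannot enter, 2408 rose and 1531 fell.

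**Figure D1:**
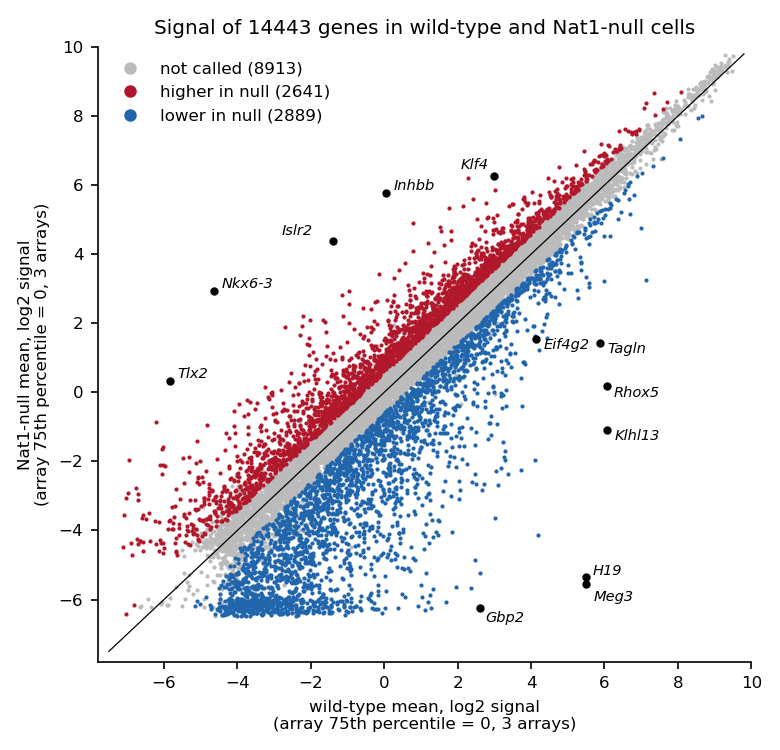
Mean log2 signal of 14443 genes on the 3 wild-type arrays (horizontal axis) and the 3 Nat1-null arrays (vertical axis), each relative to its array's 75th percentile, with called genes in red (2641 higher) and blue (2889 lower). The blue points spread much farther from the diagonal than the red ones, and many end near the lower edge, where null signal is not well above background.

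Levels are log2 signal minus that array's 75th percentile, so 0 is the brightness that 3 in 4 spots do not exceed. A fold carries the words at least unless all 3 arrays of the lower group showed the probe well above background. The raw 75th percentile lay between 559 and 675 units on the 6 arrays. On the wild-type arrays 53.6 to 53.9% of probes were well above background, and on the null arrays 47.3 to 48.8%. All 6 arrays were on one slide, the wild-type arrays in its row 1 and the null arrays in its row 2. Array to array correlation across genes was at least 0.9969 among wild-type arrays, at least 0.9859 among null arrays and 0.922 to 0.9318 between the groups.

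Chromosomes did not shift alike, and null array 2 stood apart from null arrays 1 and 3 on chromosome 1 and in some Y-linked genes. On chromosome 8 the median gene was lower by 0.31 on the log2 scale in null cells (7.10% of 775 genes rose and 33.0% fell), and on chromosome 11 it was lower by 0.25 (9.39% of 1236 rose and 28.8% fell). The other 16 autosomes had medians between 0.09 and 0.24. On chromosome 8 all 15 blocks of 50 consecutive tested genes had a median below 0, as did 24 of 25 on chromosome 11. So did 10 of 11 on the X chromosome. Among the other 16 autosomes the share ran from none of 16 on chromosome 9 to 4 of 10 on chromosome 12. Relative to the wild-type mean, the median gene of chromosome 8 read -0.30, -0.29 and -0.36 on the 3 null arrays, and that of chromosome 11 read -0.23, -0.25 and -0.27. All 3 null arrays were thus alike on these chromosomes.

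Chromosome 1 moved the other way and not on every array. Its median gene read 0.45 and 0.46 above the wild-type mean on null arrays 1 and 3 but 0.08 on null array 2, when the other 16 autosomes together read 0.17, 0.16 and 0.15. The same number stood apart in each transgenic group, so that null-background arrays of equal number are not independent samples, and there arrays numbered 1 and 3 read 0.31 to 0.36 and arrays numbered 2 read 0.04 to 0.09. A fit of the 6 arrays alone, which uses none of the transgenic arrays, called 5573 genes, 5449 of them shared with the 5530. Among the 779 genes of chromosome 1, 31.8% rose and 16.7% fell. Without null replicate 2 the chromosome's median change was 0.45 in place of 0.30, and without replicate 1 or 3 it was 0.25 or 0.23.

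Y-linked genes differed among the null arrays, and not all in one way. Eif2s3y, a subunit gene of initiation factor eIF2, read 3.45, 3.56 and 3.59 on the wild-type arrays and 2.41, 3.30 and 0.85 on the null arrays. Ddx3y, an RNA helicase gene, read 1.79, 1.98 and 1.90 in wild-type and 0.22, 1.54 and -0.77 in null cells. Null array 2 lay near the wild-type arrays in both genes and null arrays 1 and 3 lay below them, and neither gene was called. Of 8 Y-linked genes tested, Zfy1 and Rbmy fell, Zfy1 alike on all 3 null arrays and Rbmy least on null array 1. Sly, Gm20736 and Gm21996, of multicopy families, read higher without a call, and there null array 2 lay farthest from the wild-type arrays. X-linked genes had a median of -0.20 and 32.8% of 549 fell. The 413 of them above background on all 6 arrays had a median of 0.05. Under that filter the autosomes other than 1, 8 and 11 had higher medians, from 0.14 to 0.30. Karyotypes are not given in the sources, copy number was not measured, and these chromosomes were singled out after their values were seen. With chromosomes 1, 8, 11, X and Y left out, 2151 of 11095 genes rose (19.4%) and 1965 fell (17.7%), so that rises then outnumbered falls.

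**Figure D2:**
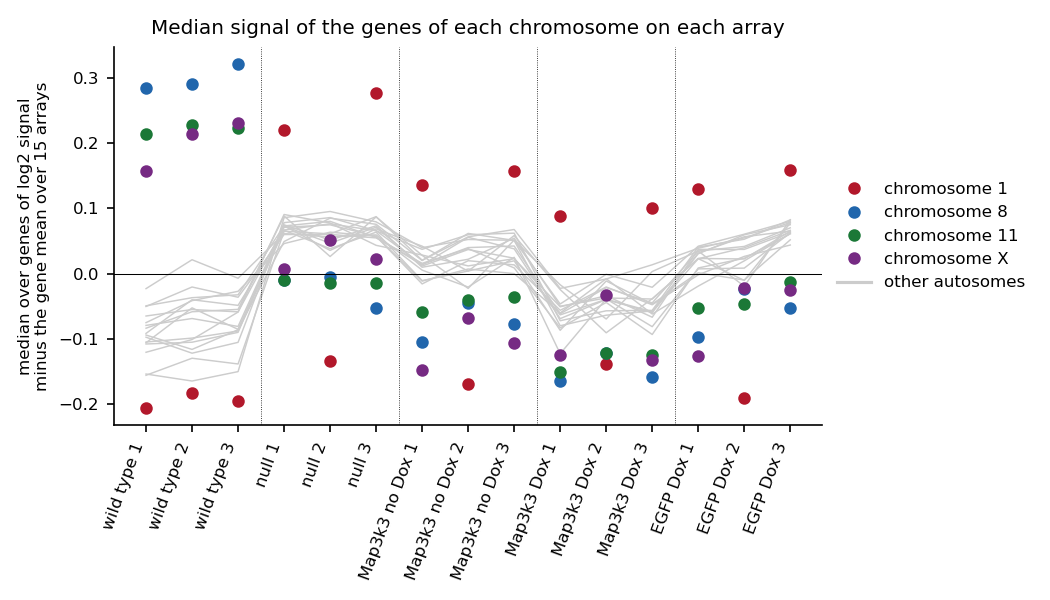
Median, over the genes of a chromosome, of log2 signal minus the gene's mean over all 15 arrays (vertical axis), for each array (horizontal axis), with chromosomes 1, 8, 11 and X as coloured points and the other 16 autosomes as grey lines. Chromosomes 8 and 11 lie above 0.2 on the wild-type arrays alone, and chromosome 1 lies below 0 on wild-type arrays and on every array numbered 2.

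The targeted gene was lower on every null array. Eif4g2 read 3.97, 4.21 and 4.20 on the wild-type arrays and 1.62, 1.33 and 1.71 on the null arrays. It fell 5.95-fold (log2 change -2.57, SE 0.14, adjusted p = 2.11e-08), with no overlap between the groups. No source used here places the probe relative to the inactivated stretch, and no intact transcript is read from what remained. The arylamine acetyltransferase gene that bears the symbol Nat1 today did not pass the filter.

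Ribosomal proteins and the core initiation factors were hardly called, whereas the eIF4G family was called about as often as all genes. Of 21 eIF4G relatives and partners 4 rose and 4 fell, a share of 38.1% beside 38.3% of all genes. Eif4g3, another scaffold of the cap complex, fell 2.91-fold, and Eif4b, a helper of the helicase that opens the messenger, fell 1.61-fold. Eif4e2, a cap-binding protein that represses translation, rose 1.90-fold, while the main scaffold gene Eif4g1 (0.13, log2) and the main cap-binding gene Eif4e (-0.10) were not called. Among 31 subunits and factors of the eIF1, eIF2, eIF3 and eIF5 groups none rose and only X-linked Eif2s3x fell, 1.66-fold, although another of its probes read 0.09 on the log2 scale. Of 74 ribosomal protein genes 72 were not called, and their median change of 0.21 compares with 0.10 for all genes. The exceptions were copies expressed in restricted tissues, Rpl3l, which rose 1.75-fold, and Rpl39l, which fell 2.08-fold. Of 19 cytoplasmic tRNA synthetases 3 fell, Sars 1.62-fold, Aars 1.54-fold and Kars 1.52-fold. Without null replicate 2 neither Eif4b nor Kars was called, and Eif2s3x was not without wild-type replicate 2 or null replicate 3. Of 43 genes of RNA-binding proteins and the microRNA machinery 8 rose and 10 fell, 41.9% in all beside 38.3% of all genes. Lin28b, which blocks let-7 maturation, fell 7.37-fold (4.89-fold without null replicate 2), the polyadenylation regulator Cpeb1 at least 6.31-fold and the epithelial splicing factor Esrp1 4.06-fold, whereas Igf2bp3 rose 2.13-fold and Trim71 1.93-fold.

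Signal was lost far more often than it was gained. In 1011 genes (7.00% of those tested) the probe was well above background on all 3 wild-type arrays and on no null array, and in 41 genes (0.284%) the reverse held. All 41 gained genes rose and 884 of the 1011 lost genes fell. The EGFP array numbered 3, from null cells with the EGFP transgene and Dox, lay on the same slide and in the same row as the wild-type arrays. All 41 gained genes and 139 of the 1011 lost genes were well above background on it. On the 3 arrays of Map3k3 cells without Dox, in row 1 of the other slide, all 41 gained genes and 181, 223 and 137 lost genes were. On the EGFP arrays 1 and 2, in row 2 of that slide, 36 and 39 gained genes and 33 and 98 lost genes were. More lost genes were thus well above background on each of these row 1 arrays than on either row 2 array, and on each array most lost genes were not. These arrays also differ from the null arrays by transgene or Dox. Among the wild-type and null arrays, slide row and genotype cannot be told apart. A fit with the row as a block, which takes the row's effect from transgenic groups that span both rows, called 2533 genes higher and 2460 lower. In those groups the arrays numbered 2 all lay in row 2, so the row's effect is not free of replicate number. The median change of chromosome 1 was 0.47 in that fit, in place of 0.30. In that fit Ccnd2, Cfc1, Cox6b2, Eif4g3, Esrp1, Fgf3, Gstm7, Hes1, Hoxc10, Hrk, Kars, Lin28b, Map4k2, Pou5f1 and Uhrf1, all called without the block, were not called. A fit with slide and row as 2 block terms, chosen after seeing the data, called 2162 genes higher and 2198 lower. In it the same genes other than Ccnd2 and Eif4g3 were not called, nor were Aars, Dhh, Efcab2, Eif2s3x, Fgfr3, Gstm5, Hoxb4, Igf2, Psmb9, Ptch1, Rbmy, Sars, Sfrp2 and Zic5. With normexp background correction Efcab2, Fgf3, Gstm7, H2-DMb1, Hoxc10, Igf2, Krt80, Lif, Pou5f1, Rbmy, Tap1 and Uhrf1 were not called.

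Among the 41 gained genes were the homeobox genes Tlx2, Msx3, Cux2, Hoxc9 and Hoxc11, the zinc finger genes Prdm16 and Zbtb7c, the inhibin subunit gene Inha, the growth factor gene Fgf3 and the matrix genes Matn1, Crtac1 and Col20a1. Tlx2 read -6.87, -5.0 and -5.65 on the wild-type arrays and 0.09, 0.73 and 0.14 on the null arrays. Msx3 read -6.71, -5.68 and -5.71 in wild-type and -2.03, -1.87 and -2.38 in null cells. Prdm16, a regulator of brown fat and blood stem cells, read -5.72, -5.65 and -6.96 in wild-type and -1.93, -2.48 and -1.94 in null cells. None was well above background on a wild-type array and each was on all 3 null arrays, and they rose at least 36.9-fold, at least 7.00-fold and at least 6.88-fold. Msx3, Cux2, Prdm16 and Zbtb7c were picked from the 41 after their values were seen.

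The largest rise was in Nkx6-3, a homeobox gene of the stomach and hindbrain. It read -4.58, -4.63 and -4.67 on the wild-type arrays and 3.01, 2.45 and 3.34 on the null arrays, a 189-fold rise (log2 change 7.56, SE 0.31, adjusted p = 2.58e-09). Its other probe gave a smaller log2 change, 6.12. Islr2, a membrane protein of growing axons, read -1.43, -1.29 and -1.46 in wild-type and 4.43, 4.73 and 3.95 in null cells and rose 54.3-fold (log2 change 5.76, SE 0.18, adjusted p = 3.94e-10). Inhbb, the activin B subunit, read -0.11, 0.10 and 0.20 in wild-type and 5.96, 5.12 and 6.21 in null cells and rose 52.1-fold (log2 change 5.70, SE 0.43, adjusted p = 3.46e-07). In all 3 genes every null array lay above every wild-type array, which the rule that chose these genes required. Inhbb is on chromosome 1, and its level on null array 2 was the lowest of the 3. Rapgef3, the cyclic AMP-driven exchange factor for Rap, rose 21.7-fold, the small GTPase Mras 17.4-fold and the phosphatase inhibitor Ppp1r14d 18.0-fold. Fxyd4, a regulator of the sodium pump, rose 24.1-fold, the citrate carrier Slc13a5 15.7-fold, the glutamine carrier Slc38a5 15.0-fold and the axon guidance ligand Sema5b 15.6-fold.

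Some rising genes were among the brightest on the null arrays. Of called genes above the 95th percentile of all 3 arrays in a group, the largest rises after Inhbb were in Tbx3, 15.1-fold, Cobl, an actin nucleator, 11.8-fold, and Klf4, 9.75-fold. Klf4, a transcription factor of naive stem cells, read 3.16, 2.98 and 2.80 on the wild-type arrays and 6.24, 6.31 and 6.25 on the null arrays. Slc6a8, the creatine transporter, read 3.03, 3.03 and 3.03 in wild-type and 5.86, 5.89 and 5.81 in null cells and rose 7.06-fold (log2 change 2.82, SE 0.06, adjusted p = 3.58e-11). Mymx, a membrane peptide of myoblast fusion, read 2.05, 2.23 and 2.17 in wild-type and 5.37, 5.77 and 5.04 in null cells and rose 9.50-fold (log2 change 3.25, SE 0.16, adjusted p = 9.74e-09). The 3 arrays of a group lay close together in these genes, far closer than the groups lay to each other. Tfcp2l1, a transcription factor downstream of LIF, rose 9.11-fold, Kbtbd11 6.57-fold, Irf2bpl 5.68-fold and the postsynaptic scaffold gene Dlgap3 4.79-fold.

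Most of the largest falls ended at signal not well above background on at least 1 null array. H19, an imprinted non-coding RNA, read 5.62, 5.35 and 5.50 on the wild-type arrays and -5.87, -5.0 and -5.15 on the null arrays and fell at least 945-fold (log2 change -10.83, SE 0.74, adjusted p = 1.52e-07). Meg3, the non-coding RNA of the Dlk1 and Dio3 domain, read 5.47, 5.51 and 5.50 in wild-type and -4.16, -6.18 and -6.28 in null cells and fell at least 929-fold (log2 change -11.03, SE 1.16, adjusted p = 5.32e-06). Its probes did not give one size, with log2 changes between -11.03 and -4.37. Klhl13, an adaptor of a ubiquitin ligase on the X chromosome, read 5.91, 6.17 and 6.13 in wild-type and -1.13, -0.92 and -1.21 in null cells and fell 143-fold (log2 change -7.16, SE 0.19, adjusted p = 1.02e-10). H19 and Meg3 were well above background on no null array, and Klhl13 was on all 3. Rhox5, an X-linked homeobox gene, fell 59.1-fold, and the calcium-dependent membrane protein gene Anxa1 62.5-fold. Plbd1 fell at least 95.9-fold, Thbs1 at least 79.2-fold, Enpp2 at least 68.0-fold and the secreted kinase Pkdcc at least 55.6-fold. Plac8 fell at least 68.2-fold, which became 34.2-fold without null replicate 2 and at least 108-fold without null replicate 3. Among bright genes the lipid carrier Fabp5 fell 6.75-fold, the galectin gene Lgals1 5.72-fold, the transposon repressor Tex19.1 5.83-fold and Phgdh, the first enzyme of serine synthesis, 5.27-fold.

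**Figure D3:**
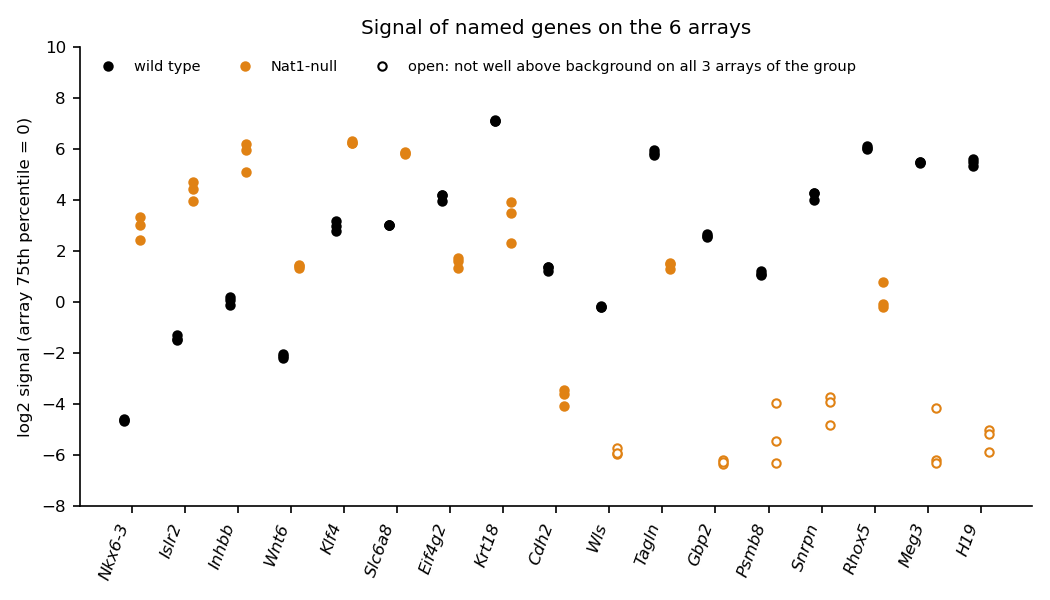
Log2 signal with the array's 75th percentile at 0 (vertical axis) of 17 named genes (horizontal axis) on the 3 wild-type arrays (black) and the 3 Nat1-null arrays (orange), where open points mark a group not well above background on all 3 arrays. Points are to be compared within a gene only, since probes differ in brightness, and no gene shown has overlapping groups.

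The LIF pathway was the signalling list with the highest share of rises. LIF binds Lifr and Il6st, Jak kinases then activate STAT3, and Socs proteins feed back on them. Of 27 measured genes 12 rose (44.4%, beside 18.3% of all genes) and 3 fell, and the median change was 0.56. The receptor gene Lifr read 1.82, 2.03 and 1.90 on the wild-type arrays and 3.45, 3.56 and 3.31 on the null arrays and rose 2.88-fold. Stat3 read 3.39, 3.38 and 3.38 in wild-type and 4.09, 4.27 and 4.09 in null cells and rose 1.70-fold (log2 change 0.76, SE 0.08, adjusted p = 3.43e-06). Its feedback inhibitor Socs3 read 4.18, 4.32 and 4.16 in wild-type and 5.62, 5.61 and 5.37 in null cells and rose 2.49-fold (log2 change 1.31, SE 0.13, adjusted p = 2.6e-06). No null array overlapped the wild-type arrays in these 3 genes. Stat5a rose 3.89-fold, the kinase Pim3 3.45-fold and Jak3 2.81-fold, whereas Il6st (-0.10) was not called. Against the list, Pim2 fell 13.4-fold, and Lif itself at least 1.63-fold.

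FGF genes and the Ras and MAP kinase genes that carry their signal moved both ways. Of 21 FGF ligands and receptors 5 rose and 9 fell. The ligand gene Fgf10 rose at least 10.7-fold, the receptor Fgfr3 2.54-fold and Fgf11 2.67-fold, and Fgf5, a marker of the primed state, fell at least 16.3-fold, the FGF carrier Fgfbp1 at least 12.4-fold and Fgf8 3.34-fold. Among 48 Ras family genes and their regulators 10 rose and 11 fell, 43.8% in all beside 38.3% of all genes, with the exchange factor Rasgrp1 lower at least 18.7-fold and the Ras relative Rasd2 20.0-fold. The Ras genes Hras (0.20) and Nras (0.28) were not called. In the MAP kinase cascade 10 of 42 rose and 5 fell, 35.7% in all beside 38.3% of all genes. The MAP4 kinase genes Map4k3 and Map4k2 rose 2.64-fold and 2.22-fold, and Map2k5 2.16-fold. Map3k15 fell 4.24-fold and the neuronal JNK gene Mapk10 at least 2.37-fold, and Map3k3 (-0.21) was not called.

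Wnt genes fell more often than they rose, but some ligands were higher. Of 58 measured genes 28 fell (48.3%, beside 20.0% of all genes) and 12 rose. The ligand genes Wnt6 and Wnt10a rose 11.4-fold and 7.33-fold, while Wnt4 fell at least 9.75-fold. Wnt6 read -2.19, -2.12 and -2.01 on the wild-type arrays and 1.45, 1.41 and 1.34 on the null arrays. Wls, the carrier that all Wnt ligands need for secretion, read -0.19, -0.14 and -0.19 in wild-type and -5.95, -5.70 and -5.91 in null cells and fell at least 18.6-fold (log2 change -5.68, SE 0.17, adjusted p = 9.15e-10). Sp5, a direct target of beta-catenin, read 1.90, 1.47 and 1.57 in wild-type and -2.60, -2.92 and -2.17 in null cells and fell 18.5-fold (log2 change -4.21, SE 0.30, adjusted p = 1.88e-07). The null arrays lay above the wild-type arrays in the first of these genes and below them in the other two. Fzd5, a receptor, rose 6.96-fold and the inhibitor Sfrp1 7.78-fold, while the inhibitor Sfrp2 fell at least 12.0-fold (7.54-fold without null replicate 2). Beta-catenin itself, Ctnnb1 (0.36), and its destruction scaffold Apc (0.32) were not called.

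In the TGF-beta, activin and BMP list 13 of 57 genes rose and 20 fell. Activin and TGF-beta ligands signal through Smad2 and Smad3, BMP ligands through Smad1 and Smad5, and Smad7 inhibits both. After Inhbb, the largest rises were in Smad7, 5.24-fold, and Bmp4, 4.23-fold, a ligand that acts with LIF on stem cells. Smad7 read 1.22, 1.34 and 1.24 on the wild-type arrays and 3.58, 3.69 and 3.70 on the null arrays. Bmp4 read 3.02, 3.01 and 2.90 in wild-type and 5.04, 5.30 and 4.82 in null cells. The ligand gene Tgfb2 read 0.77, 0.82 and 0.84 in wild-type and -2.73, -2.25 and -2.36 in null cells and fell 9.55-fold. In all 3 genes the groups were apart. Bmp8b fell 7.76-fold, the receptor Bmpr1b at least 7.14-fold and the Nodal co-receptor Cfc1 at least 5.00-fold (3.20-fold without null replicate 2). The signal carriers Smad1, Smad2, Smad3, Smad4 and Smad5 were not called, with log2 changes of 0.13, 0.38, 0.12, 0.50 and 0.54.

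Notch pathway genes mostly fell, ligands and targets among them. Notch ligands on one cell activate receptors on the next, and Hes and Hey repressors are the usual targets. Of 27 genes 14 fell (51.9%) and 2 rose, with a median change of -0.77. The ligand gene Dll1 read -0.38, -0.16 and -0.54 on the wild-type arrays and -6.04, -5.45 and -5.99 on the null arrays and fell at least 16.4-fold. Jag1, a second ligand, read 0.65, 0.79 and 0.69 in wild-type and -1.68, -0.37 and -1.82 in null cells and fell 3.99-fold. The target gene Hes5 read -1.82, -2.09 and -1.89 in wild-type and -5.30, -5.18 and -5.29 in null cells and fell at least 5.51-fold. Dll1 and Hes5 were not above background on all 3 null arrays, whereas Jag1 was. The imprinted non-canonical ligand gene Dlk1 fell at least 53.2-fold and Hes3 at least 4.97-fold, while Notch4 and Hes1 rose 2.31-fold and 2.09-fold, and Notch1 (0.03) was not called. Hes1 was not called without wild-type replicate 3.

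Smaller signalling lists differed among themselves. In the Hedgehog pathway 7 of 18 genes rose and 3 fell, with the transcription factors Gli2 up 5.78-fold and Gli3 down 4.50-fold, the ligands Dhh and Ihh up 2.76-fold and 2.58-fold, and the receptor gene Ptch1, itself a target, down 2.46-fold. In retinoid metabolism 9 of 25 fell and 2 rose, 44.0% in all beside 38.3% of all genes. The carriers Rbp7 and Rbp4 fell 4.06-fold and 3.66-fold and the degrading enzyme Cyp26a1 at least 3.98-fold. On the insulin and IGF axis 9 of 38 rose and 11 fell, with Foxo6 up 11.6-fold and the binding protein gene Igfbp3 down at least 38.4-fold and the receptor substrate Irs1 at least 9.91-fold. Among 27 Hippo genes and YAP targets 7 fell and 3 rose, 37.0% in all beside 38.3% of all genes. The YAP-binding scaffold Amot fell at least 29.0-fold, the target genes Ccn1 and Ccn2 12.5-fold and 8.00-fold and the receptor kinase Axl 8.53-fold, whereas Yap1 (0.49) was not called. Guidance systems changed in many members. Of 18 Eph receptors and ephrins 8 fell and 2 rose, Efna5 lower at least 22.7-fold and Epha8 at least 17.1-fold, and Epha4 higher 4.44-fold. Of 40 semaphorins, plexins, netrins and slits 15 fell and 12 rose, Sema6a lower at least 19.3-fold and Sema7a higher 7.84-fold.

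**Figure D4:**
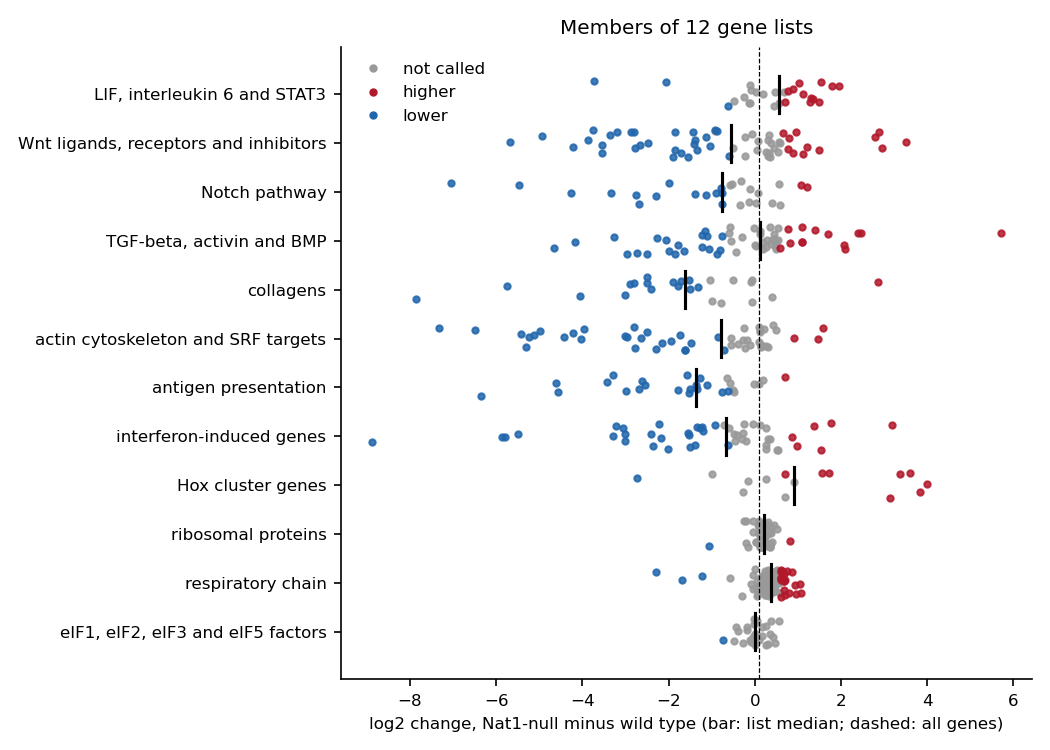
Log2 change, Nat1-null minus wild type (horizontal axis), of every measured member of 12 gene lists (rows), with called members in red (higher) or blue (lower), the list median as a black bar and the median of all genes as a dashed line. Members of the Notch, collagen, contractile and antigen presentation lists extend far to the left, most of the LIF and Hox lists lie to the right of the dashed line, and ribosomal proteins stay near the dashed line.

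Stem cell markers were detected in both groups. All 11 pluripotency markers with a probe, among them Pou5f1, Nanog and Zfp42, were well above background on all 6 arrays, and their summed linear signal (in units of the array's 75th percentile) was 576 to 615 in wild-type and 941 to 961 in null cells. Pou5f1 rose 1.51-fold, Sox2 3.30-fold, Nanog 2.43-fold and Tdgf1 2.14-fold. Not every identity gene rose or held. In a list of 12 stem cell identity genes 7 rose, 1 fell and 4 were not called. Their log2 changes lay between -3.73 and 1.72, so the fall was larger than any rise. Pou5f1 was at the 1.5-fold limit and was not called without wild-type replicate 1 or 2 or null replicate 2. Fibroblast and trophoblast markers were lower along with the matrix, keratin and contractile genes. Of 17 embryonic fibroblast markers 11 were above background on all wild-type arrays and 3 on all null arrays, with a summed signal of 21.2 to 23.5 against 3.08 to 3.60. The other 6, Col6a3, Lum, Postn, Pdgfra, Fap and Prrx1, were well above background on no wild-type array. Of 11 trophoblast markers 9 and 5 were detected in that way, with summed signals of 17.4 to 18.0 and 5.44 to 8.49, and of 10 primitive endoderm markers 5 and 2, with 1.02 to 1.08 and 0.798 to 1.09. Their part in the lower matrix, keratin and contractile signal was not tested. In such bulk samples, fewer cells of a type and less RNA per cell cannot be told apart.

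Most collagen and matrix genes fell. Of 24 collagen genes 15 fell (62.5%, beside 20.0% of all genes) and 1, Col20a1, rose, and the median change was -1.62, or -1.18 when members near background are set to their bound. Col1a1 read 3.36, 3.41 and 3.33 on the wild-type arrays and -2.43, -2.40 and -2.28 on the null arrays and fell 53.4-fold (log2 change -5.74, SE 0.16, adjusted p = 1.24e-10). Col1a2, the other chain of type I collagen, read 2.72, 2.71 and 2.40 in wild-type and -5.35, -4.81 and -5.57 in null cells and fell at least 129-fold. Col2a1, the cartilage collagen, read 0.29, 0.21 and 0.18 in wild-type and -2.61, -3.24 and -1.89 in null cells and fell 7.02-fold. The wild-type arrays were far above the null arrays in both chains of type I collagen. Of 41 basement membrane and matrix glycoprotein genes 24 fell and 8 rose. The matrix gene Efemp1 fell at least 10.3-fold and the thrombospondin gene Thbs4 at least 8.92-fold, whereas the early laminin chain Lama1 rose 3.47-fold, Nid1 2.72-fold and Matn1 at least 5.97-fold. Serpins and coagulation proteases followed, with 20 of 38 lower, among them Prss23 at least 51.1-fold, and 7 higher, F2r 3.30-fold first among them. Of 34 metalloproteases and their inhibitors 11 fell and 6 rose, with Adamts1, Timp3 and Mmp2 lower at least 15.4-fold, 12.2-fold and 11.0-fold.

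Adhesion genes fell more often than they rose. Of 25 cadherins 11 fell and 3 rose. Cdh2, N-cadherin, read 1.21, 1.36 and 1.37 on the wild-type arrays and -4.05, -3.42 and -3.60 on the null arrays and fell 32.1-fold (log2 change -5.01, SE 0.55, adjusted p = 7.46e-06). Cdh3 fell 5.04-fold, and the planar polarity cadherin Celsr1 rose 3.91-fold. Among 30 tight junction and desmosome genes 13 fell and 4 rose, with Dsc2 and Dsp, both of desmosomes, lower at least 8.88-fold and 5.37-fold, and Jam2 higher 3.96-fold. Of 17 integrins 7 fell, Itga11 at least 5.02-fold, and 3 rose, Itga9 4.49-fold. Keratins fell in 13 of 20 cases (65.0%), with a median of -1.71, or -1.05 at the bounds. Krt18 read 7.15, 7.11 and 7.10 on the wild-type arrays and 3.49, 2.32 and 3.91 on the null arrays and fell 14.7-fold. Its partner Krt8 read 3.85, 3.78 and 3.80 in wild-type and 1.07, 0.45 and 1.11 in null cells and fell 7.62-fold. In both genes the null arrays were more spread than the wild-type arrays and did not reach them. Krt20 fell at least 9.53-fold and Krt19 7.20-fold, and Krt80 rose 2.01-fold.

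Contractile genes and targets of the serum response factor SRF fell in 26 of 50 cases (52.0%) and rose in 3. SRF with its actin-sensing partners drives genes of the cytoskeleton through a DNA element named the CArG box. Tagln, transgelin, read 5.86, 5.79 and 5.96 on the wild-type arrays and 1.31, 1.48 and 1.53 on the null arrays and fell 21.5-fold (log2 change -4.43, SE 0.16, adjusted p = 8.38e-10). Myl9, a myosin light chain of smooth muscle, read 3.09, 3.09 and 2.93 in wild-type and -2.11, -2.30 and -2.42 in null cells and fell 39.8-fold (log2 change -5.32, SE 0.19, adjusted p = 8.33e-10). Fhl2, a cofactor induced by SRF, read 2.13, 2.05 and 1.94 in wild-type and -2.84, -3.98 and -2.41 in null cells and fell 34.7-fold (log2 change -5.12, SE 0.40, adjusted p = 4.28e-07). No null array came near the wild-type arrays in these genes. Smooth muscle actin, Acta2, fell at least 116-fold, the cardiac myosin gene Myh6 37.8-fold and skeletal actin, Acta1, at least 31.0-fold. The general actin genes Actb (-0.24) and Actg1 (0.14), Srf (0.14) and its partners Mrtfa (0.26) and Mrtfb (0.22) were not called.

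The CArG box was looked for in the 250 bases before the start of each gene, on both strands, in promoter sequences of RefSeq on GRCm38.p6. It was found in 7 of 25 such windows of the fallen members, in 4 of 18 of the uncalled members and in 1.29% of 11476 windows of all tested genes (1.40% of all 27025 in the table). A match is a description of the letters and not a binding site. The windows of 3 fallen members that hold the box are shown as examples, 5′ to 3′, with the box in capitals. They lie at chr2:156775214-156775463 (plus strand) for Myl9, chr1:43196762-43197011 (minus strand) for Fhl2 and chr8:123894776-123895025 (minus strand) for Acta1.
Myl9: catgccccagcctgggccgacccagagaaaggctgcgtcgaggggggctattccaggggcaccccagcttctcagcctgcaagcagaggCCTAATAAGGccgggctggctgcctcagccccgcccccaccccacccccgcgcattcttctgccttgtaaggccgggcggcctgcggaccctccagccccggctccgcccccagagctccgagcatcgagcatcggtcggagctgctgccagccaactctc
Fhl2: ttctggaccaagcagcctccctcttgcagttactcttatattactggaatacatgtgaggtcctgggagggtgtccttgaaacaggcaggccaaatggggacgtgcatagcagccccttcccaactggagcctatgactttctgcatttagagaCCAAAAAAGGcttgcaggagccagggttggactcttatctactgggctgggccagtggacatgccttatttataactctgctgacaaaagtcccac
Acta1: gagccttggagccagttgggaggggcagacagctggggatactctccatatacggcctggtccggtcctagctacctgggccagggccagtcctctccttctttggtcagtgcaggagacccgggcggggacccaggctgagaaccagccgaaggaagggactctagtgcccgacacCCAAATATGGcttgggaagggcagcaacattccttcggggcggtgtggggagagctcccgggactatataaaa

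Antigen presentation genes fell in 19 of 27 cases (70.4%, beside 20.0% of all genes) and 1 rose, with a median of -1.36. The pathway cuts proteins with the immunoproteasome, carries the peptides into the endoplasmic reticulum through Tap proteins and shows them on class I molecules together with B2m. Psmb8, a subunit of the immunoproteasome, read 1.22, 1.09 and 1.09 on the wild-type arrays and -5.42, -6.28 and -3.95 on the null arrays and fell at least 37.3-fold. The transporter gene Tap2 read 0.57, 0.55 and 0.39 in wild-type and -3.86, -4.97 and -3.34 in null cells and fell (log2 change -4.56, SE 0.31, adjusted p = 1.56e-07). B2m read 2.74, 2.77 and 2.69 in wild-type and -0.29, -0.55 and 0.06 in null cells and fell 7.95-fold (log2 change -2.99, SE 0.15, adjusted p = 1.01e-08). The wild-type arrays lay close together in each of these genes and the null arrays well below them, with Psmb8 above background on 1 null array and Tap2 on 2. Of 39 proteasome genes 5 fell and 1 rose, and the fallen ones with the largest folds were the 3 immunoproteasome subunits, Psmb8, Psmb9 (6.42-fold) and Psmb10 (1.70-fold). The constitutive subunits that they replace, Psmb5 (0.00), Psmb6 (-0.31) and Psmb7 (0.03), were not called.

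Interferon-induced genes fell in 24 of 48 cases and rose in 6. Gbp2, a guanylate-binding protein that acts against intracellular pathogens, read 2.69, 2.58 and 2.56 on the wild-type arrays and -6.34, -6.18 and -6.26 on the null arrays and fell at least 128-fold (log2 change -8.87, SE 0.12, adjusted p = 8.18e-13). Isg15, a ubiquitin-like protein, read 1.17, 1.22 and 1.15 in wild-type and -2.06, -2.04 and -2.22 in null cells and fell 9.78-fold (log2 change -3.29, SE 0.12, adjusted p = 1.12e-09). Gbp3 fell at least 32.0-fold and Oasl2 at least 21.7-fold. Genes that sense foreign DNA or relay that signal were among the few that rose, Sting1 3.43-fold and Cgas 2.91-fold, besides Xaf1 9.10-fold. The receptor genes Ifnar1 (-0.31), Ifngr1 (-0.27) and Ifngr2 (-0.42) were not called. Of 38 chemokine, cytokine and receptor genes 15 fell, Cxcl12 at least 13.4-fold, Csf1 at least 12.4-fold and Cxcl10 at least 11.2-fold, and 3 rose, the stem cell factor receptor Kit 2.64-fold first.

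Interferon response elements repeat the letters GAAA, and the motif GAAANNGAAA, with N any base, was searched on both strands of the same windows. It was present in 9 of 18 windows of fallen interferon-induced genes, in 3 of 13 of uncalled ones, in none of 4 of those that rose and in 2.50% of 11476 windows of all tested genes (3.04% of all 27025). The windows of 3 fallen members that hold it are shown as examples, with every match in capitals and overlapping matches run together. They lie at chr3:142620413-142620662 (plus strand) for Gbp2, chr3:142559794-142560043 (plus strand) for Gbp3 and chr4:156200819-156201068 (minus strand) for Isg15.
Gbp2: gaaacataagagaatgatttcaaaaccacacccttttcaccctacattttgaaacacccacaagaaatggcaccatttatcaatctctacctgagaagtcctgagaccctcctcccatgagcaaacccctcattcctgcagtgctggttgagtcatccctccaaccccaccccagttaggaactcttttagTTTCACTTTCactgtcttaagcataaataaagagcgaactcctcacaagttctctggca
Gbp3: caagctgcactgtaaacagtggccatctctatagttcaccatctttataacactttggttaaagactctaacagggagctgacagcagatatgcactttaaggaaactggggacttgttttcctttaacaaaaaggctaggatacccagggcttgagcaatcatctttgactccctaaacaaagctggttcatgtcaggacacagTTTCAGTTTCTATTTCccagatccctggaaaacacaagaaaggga
Isg15: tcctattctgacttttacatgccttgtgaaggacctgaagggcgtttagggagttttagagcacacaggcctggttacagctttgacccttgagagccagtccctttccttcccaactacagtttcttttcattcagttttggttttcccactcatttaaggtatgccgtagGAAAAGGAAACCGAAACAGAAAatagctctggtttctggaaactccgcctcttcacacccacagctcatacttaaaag

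The DNA methylation and Polycomb lists held more rises than falls. DNA methylation is laid down by Dnmt3a and Dnmt3b, kept by Dnmt1 and Uhrf1, removed through Tet enzymes and guarded at imprinted sites by Zfp57. Of 23 genes 10 rose and 3 fell. Tet2 read 2.54, 2.67 and 2.68 on the wild-type arrays and 4.85, 4.80 and 4.79 on the null arrays and rose 4.55-fold. Dnmt3a read 0.40, 0.39 and 0.21 in wild-type and -2.83, -2.79 and -2.58 in null cells and fell 8.38-fold. Dppa3, which shields the early embryo's genome from demethylation, read 3.08, 3.22 and 3.22 in wild-type and -2.45, -2.74 and -1.41 in null cells and fell 41.6-fold. The groups were apart in each of the 3 genes. Zfp57 rose 3.48-fold, the methyl-binding gene Zbtb38 2.68-fold and Zbtb4 2.12-fold, Dnmt3b fell 4.65-fold, and Dnmt1 (0.33) was not called. Of 35 Polycomb genes 14 rose and 8 fell. Phf1 rose 2.84-fold, Pcgf1 2.59-fold and Aebp2 2.08-fold, and Yaf2 fell 3.20-fold.

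Imprinted genes, read from 1 parental copy, fell in many domains at once. Of 30 paternally expressed genes 18 fell (60.0%) and none rose, with a median of -1.56, or -1.17 at the bounds. Of 29 maternally expressed genes 11 fell and 7 rose, with a median of -0.02. Snrpn, of the Prader-Willi domain, read 4.01, 4.28 and 4.26 on the wild-type arrays and -3.70, -4.80 and -3.92 on the null arrays and fell at least 271-fold. Magel2, of the same domain, read 0.93, 1.15 and 1.22 in wild-type and -3.70, -4.46 and -4.32 in null cells and fell at least 35.0-fold. Kcnq1ot1, a non-coding RNA that silences its neighbours on the paternal copy, read 1.51, 1.08 and 1.17 in wild-type and -5.18, -6.19 and -6.24 in null cells and fell at least 50.2-fold. Kcnq1 and Slc22a18, maternally expressed genes of the Kcnq1ot1 domain, rose at least 4.62-fold and 4.14-fold. Mirg, transcribed beside Meg3, fell at least 108-fold, and Atp10a at least 17.3-fold. Not every imprinted gene moved, for Igf2r (0.05), Ube3a (-0.02) and Zdbf2 (-0.11) were not called. Germline genes that DNA methylation holds silent in most tissues fell in 20 of 39 cases (51.3%) and rose in 3. Rhox5 read 6.02, 6.13 and 6.03 on the wild-type arrays and -0.06, -0.20 and 0.79 on the null arrays. Xlr3b, another X-linked gene, read 1.17, 1.24 and 1.26 in wild-type and -4.44, -4.42 and -4.20 in null cells and fell at least 42.1-fold. Rhox9 and Rhox6 fell at least 36.3-fold and at least 30.3-fold, which became at least 56.7-fold and at least 49.0-fold without null replicate 3, and 17.8-fold for Rhox6 without null replicate 2. The meiosis genes Hormad1 and Stag3 rose 5.71-fold and 4.41-fold.

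Transcription factor families moved in both directions. Of 15 Hox genes tested 8 rose (53.3%) and 1 fell, with a median of 0.92, or 0.70 at the bounds. Hoxc13 read -3.63, -3.42 and -3.89 on the wild-type arrays and -0.24, -0.14 and -0.46 on the null arrays and rose 10.3-fold. Hoxb13 read -4.16, -3.57 and -3.69 in wild-type and -0.67, -0.49 and -0.88 in null cells and rose 8.74-fold. Both are the last genes of their clusters, which pattern the tail end of the body. Hoxc4 rose at least 5.97-fold, Hoxc11 at least 4.39-fold, and Hoxb4 fell at least 2.47-fold. Of 70 other homeobox genes 23 rose and 17 fell, with Nkx6-2 up 10.7-fold and Gbx2 7.14-fold, and Pou3f1 down 5.28-fold. Of 15 Sox genes 2 rose and 4 fell, 40.0% in all beside 38.3% of all genes. Sox7 rose 8.86-fold and Sox2 3.30-fold, while Sox11 and Sox4 fell at least 17.9-fold and 10.1-fold. Krüppel-like factors divided almost evenly, 5 of 16 higher and 6 lower, with Klf5 up 4.12-fold and Klf7 and Klf6 down 4.14-fold and 3.11-fold. Of 32 forkhead genes 7 rose and 9 fell, Foxd3 up 4.76-fold and Foxp1 down 5.73-fold. In the Gata, Tbx, Zic, Snail and Zeb list 14 of 32 fell and 7 rose, with Twist2 down at least 10.1-fold and Zic5 at least 9.08-fold, and Gata2 up 5.26-fold. Of 33 nuclear receptors 8 rose and 7 fell, 45.5% in all beside 38.3% of all genes. The xenobiotic receptor Ahr, listed with them, fell 8.12-fold.

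**Figure D5:**
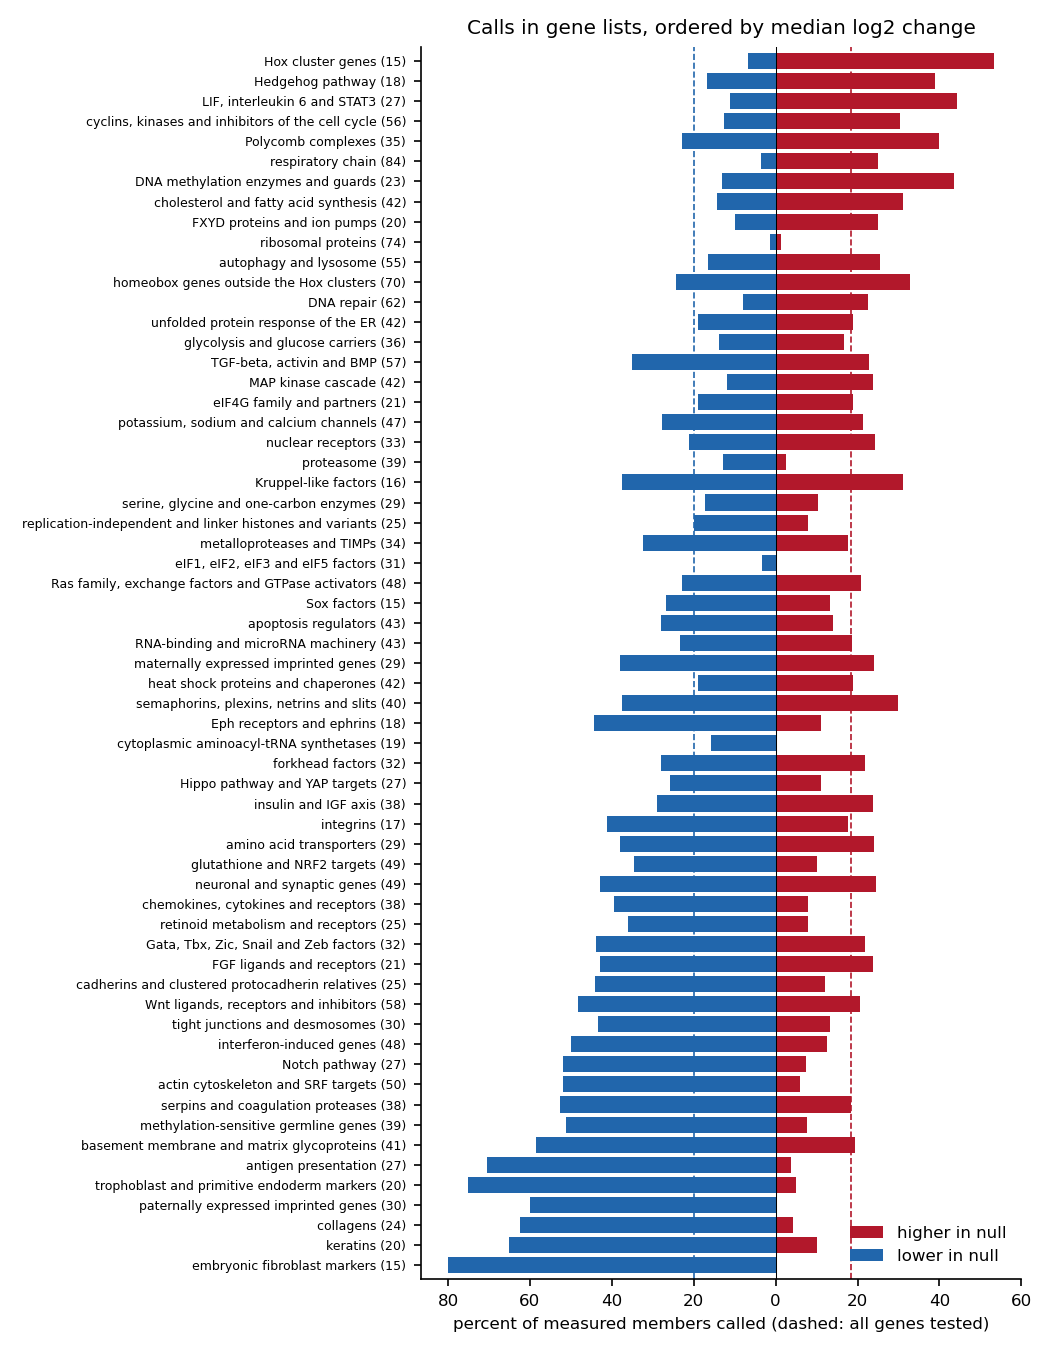
Percent of measured members called higher (red, to the right) or lower (blue, to the left) in null cells in each gene list with at least 15 measured members (number in brackets), ordered by the list's median change; dashed lines mark 18.3% and 20.0%, the shares of all genes. Fibroblast markers, keratins, collagens and paternally expressed imprinted genes stand at the bottom, Hox, Hedgehog and LIF genes at the top, and ribosomal proteins and core initiation factors have almost no bar.

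Respiratory chain genes rose more often than they fell. Of 84 respiratory chain genes 21 rose (25.0%) and 3 fell, 28.6% in all beside 38.3% of all genes. Their median of 0.37 compares with 0.10 for all genes. The rises were small, Cox6b2 2.09-fold, Ndufb2 2.07-fold and Cox5b 1.92-fold. The genes that fell were Cox8c, at least 3.06-fold, Cox7b2, at least 3.01-fold, and Cyct, 2.33-fold. Glycolysis genes divided, 6 of 36 higher and 5 lower, 30.6% in all and so fewer than among all genes. The regulator Pfkfb4 rose 3.73-fold and its relative Pfkfb3 fell 2.69-fold, and the hexokinases Hk2 and Hk1 rose 2.28-fold and 2.17-fold. In cholesterol and fatty acid synthesis 13 of 42 rose and 6 fell, 45.2% in all, with Cyp51 up 2.33-fold and the desaturase Fads3 down 5.27-fold. Of 29 serine, glycine and one-carbon genes 5 fell and 3 rose, 27.6% in all beside 38.3% of all genes. Phgdh read 5.53, 5.58 and 5.60 on the wild-type arrays and 3.24, 2.74 and 3.54 on the null arrays. Gldc, which cleaves glycine, read 5.01, 5.04 and 4.94 in wild-type and 3.38, 3.14 and 3.84 in null cells and fell 2.91-fold. Both genes were lower on each null array than on any wild-type array. Glutathione genes and NRF2 targets fell in 17 of 49 cases and rose in 5, 44.9% in all beside 38.3% of all genes. Mgst1 was down at least 13.6-fold, Gpx8 5.97-fold and the transferase genes Gstm6 and Gstm5 6.19-fold and 5.76-fold. Nfe2l2, which encodes NRF2, was up 1.72-fold.

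Carriers and channels included some of the largest changes. Among 29 amino acid transporters 11 fell and 7 rose, with Slc43a1 down at least 8.53-fold. Slc38a5 read -0.97, -1.01 and -0.94 on the wild-type arrays and 2.60, 3.16 and 3.05 on the null arrays. Of 20 FXYD proteins and ion pumps 5 rose and 2 fell, 35% in all beside 38.3% of all genes. Fxyd4 read -2.71, -2.85 and -2.56 in wild-type and 2.15, 1.32 and 2.18 in null cells. Both genes were higher on every null array. The calcium pump Atp2a3 rose 8.74-fold and the sodium pump subunit Atp1b1 4.75-fold, while Fxyd5 fell at least 9.04-fold. Among 47 potassium, sodium and calcium channel genes 13 fell and 10 rose, 48.9% in all. Scn2b was up 5.33-fold and Cacna2d1 down at least 7.39-fold. Neuronal and synaptic genes fell in 21 of 49 cases and rose in 12. The cytoskeletal genes Stmn4, Crmp1 and Nefl fell 35.9-fold, 25.2-fold and 18.1-fold, whereas Mapt, the tau gene, rose 8.90-fold and the glutamate receptor genes Grik4 and Grik3 6.54-fold and 6.26-fold.

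Lists of protein quality control were called in both directions. Heat shock proteins and chaperones (8 of 42 higher, 8 lower) and genes of the unfolded protein response (8 of 42 higher, 8 lower) were each called in 38.1% of cases, beside 38.3% of all genes. The co-chaperone Bag3 fell 4.04-fold and Xbp1, a transcription factor of the response, 2.32-fold, and Ppp1r15b, which restores translation after stress, rose 3.00-fold. The chaperone gene Hspa5 (0.39), the usual readout of that stress, was not called. Autophagy and lysosome genes rose in 14 of 55 cases and fell in 9, 41.8% in all, with Laptm5 up 12.6-fold and the regulators Mitf and Tfeb 3.84-fold and 3.68-fold, and the protease Ctsc down 4.59-fold. Among 43 apoptosis regulators 12 fell and 6 rose, 41.9% in all, with Bcl2l11 down 3.74-fold, and Hrk and Bad up 2.77-fold and 2.45-fold.

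Cell cycle genes rose in 17 of 56 cases and fell in 7, 42.9% in all beside 38.3% of all genes, with a median of 0.46. E2f2, which drives entry into S phase, rose 3.47-fold, the cyclin Ccnd3 2.93-fold and E2f1 2.32-fold, while the cyclin Ccnd2 fell 2.64-fold and Mycn 3.52-fold. Mycn read 5.23, 5.48 and 5.38 on the wild-type arrays and 3.45, 3.60 and 3.60 on the null arrays. Its groups were apart, while Myc (0.50) was not called. Of 62 DNA repair genes 14 rose and 5 fell, 30.6% in all and so fewer than among all genes. Brca2 rose 2.71-fold and Ogg1 2.46-fold, and Rad50 fell 2.45-fold.

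Some changed genes lay side by side. No number of runs to be had by chance was computed. Taking the tested genes in the order of the RefSeq table on GRCm38.p6, 28 runs of at least 5 neighbours all rose (158 genes) and 34 runs all fell (205 genes). The longest rising run, of 10 genes from Efcab2 to Psen2 on chromosome 1, was on the chromosome that differed between null arrays, as were 7 of the 28 rising runs. Efcab2 was not called without null replicate 1 or 3 or wild-type replicate 1, and 3 rising runs were left on that chromosome without null replicate 1 or 3. Of the 34 falling runs 7 were on chromosome 8 and 6 on chromosome 11. Among the falling runs elsewhere was one of 9 genes on the X chromosome with the Xlr3, Xlr4 and Xlr5 genes (median -4.44), whose copies are so alike that probes may read more than 1 of them. Others held H19 and Igf2 on chromosome 7 (7 genes, median -3.06) and H2-DMa, H2-DMb1, Psmb9, Tap1, Psmb8 and Tap2 on chromosome 17 (6 genes, -2.23, with H2-DMb1 not called without null replicate 1). A further run held the glutathione transferase genes Gstm1, Gstm2, Gstm3, Gstm5, Gstm6 and Gstm7 with Csf1 on chromosome 3 (7 genes, -2.02). Krt79, Krt8 and Krt18 fell with their neighbours on chromosome 15 (8 genes, -0.97). Rising runs included Hoxc9, Hoxc10, Hoxc11 and Hoxc13 with Calcoco1 on chromosome 15 (5 genes, 3.37) and a run from Gmppa to Epha4 on chromosome 1 (9 genes, 2.10).

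Promoters of fallen genes were poorer in CpG. The 250 bases before the start held a median of 15 CpG in 11476 tested genes with a sequence, 16 in the 2099 that rose and 12 in the 2214 that fell. Among genes that fell at least 10-fold the median was 10, and 29.1% had fewer than 5 CpG, beside 15.3% of all tested genes. Lost genes had a median of 8 CpG and gained genes, of which 30 had a sequence, a median of 4. No test was made of these differences.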

How the data were processed

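RNA of 15 samples had been hybridised to single-colour Agilent arrays of 55681 probes, 1 array a sample. Per the file headers, Feature Extraction 11.5.1.1 made the deposited intensity values, with background subtracted. The authors also deposited a table of log2 values, which followed the scanner signal and is centred near each array's 75th percentile; no source used here states its processing. For each array, log2 processed signal was taken relative to the 75th percentile of all non-control spots, spots of a probe were averaged without outlier spots, and a probe was kept if all 3 arrays of any of the 5 groups showed it well above background. Symbols came from RefSeq accessions (28331 probes), and the brightest passing probe stood for a gene. A model with 5 group means was fitted with limma 3.58.1 in R 4.3.3 over all 15 arrays (10 residual degrees of freedom) and p-values were adjusted by Benjamini-Hochberg over all genes tested. Each "at least" fold sets the bright group's mean against the mean of, per array of the dim group, the higher of the lowest signal well above background and the probe's own. On simulated data with 100 genes changed by 2-fold and 100 by 4-fold, 78 and 93 were called with the right sign, with 3 false calls. The simulated arrays were independent, without any shared row or replicate effect, and far fewer genes changed than were called here. That number of false calls therefore cannot be carried over to the real arrays. The number of arrays limits the precision.

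Members and gene lists were chosen with earlier results of these data known. Named genes are the 15 rising and 15 falling genes with the largest folds (clone and predicted names passed over), the 10 rising and 10 falling with the largest folds among probes above the 95th percentile on all arrays of a group, up to 4 called members of a list each way and members of runs. The genes with the largest folds, bright ones included, were taken only from called genes whose groups did not overlap. Their lack of overlap is therefore no result. Acta1, Cux2, Isg15, Jag1, Msx3, Pou5f1, Prdm16, Socs3, Stat3, Uhrf1, Zbtb7c, Zfp42 and the Y-linked genes were named beyond it, and some genes within the rule are not reported here. Equal replicate numbers did not pair wild-type with null arrays, whose deviations from their group means correlated at -0.028, 0.0068 and 0.0057 across genes. They did pair the 4 null-background groups, where every such correlation lay between 0.107 and 0.631, so that the 10 residual degrees of freedom are not all independent. Fits of the 6 arrays alone and with equal numbers of these groups as a random block (correlation 0.333, chosen after seeing the data) were therefore run. Alternatives covered normalization, background correction, filters, fold minimum, probe choice, blocks and leaving out each array.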

Additional observations from a re-analysis of the deposited data

How the results depend on the processing

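Eif4g2 fell under every alternative run, by 2.33 to 2.69 on the log2 scale. Counts of called genes depended most on the fold minimum and the filter. Without a fold minimum 9265 genes were called and 5316 were higher, and with a minimum of 2 these were 3297 and 1130. When a probe had to clear background on each of the 15 arrays, 1531 genes were lower, and 64 genes were gained when 2 arrays sufficed. Leaving out 1 array gave 5344 to 5515 called genes, 2564 to 2651 higher and 2749 to 2866 lower, with Eif4g2 between -2.65 and -2.46, 44 to 46 gene lists with a median below that of all genes, and 21 to 28 rising and 29 to 34 falling runs.

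Counts of runs of neighbouring genes depended on the setting. There were 12 rising runs with quantile normalization, 11 rising and 16 falling with normexp (on median spot signals), 17 and 16 without a filter, 5 falling with the 15-array filter, 153 and 85 without a fold minimum, 3 and 15 with a minimum of 2, 19 falling with the slide row as a block, 9 and 15 with slide and row terms (chosen after seeing the data), and 62 and 64 for runs of at least 4 genes. The causes were not tested. With the replicate number as a block 5674 genes were called, beside 5530 without it, and no gene named here lost its call. None did in the fit of the 6 arrays alone (5573 called) or with arrays of equal number in the null-background groups as a random replicate block (5574 called, 5492 shared) either.

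No named gene reversed its direction with a call. The call was lost for 15 named genes with the row as a block, 27 with slide and row terms, 17 with a fold minimum of 2, 12 with normexp, 5 with quantile normalization, 2 with the authors' table and 2 with the mean of all probes. The median of all genes moved from 0.10 to 0.01 with quantile normalization, under which Pou5f1 was not called either. Dim probes have only bounds, and 1183 falls and 164 rises are of this kind. The bounds depend on the background handling, and normexp gave smaller changes for Acta1 and Acta2 than their bounds.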
